A study of Mus musculus with 7 samples.

Results

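Mgp, which encodes the secreted matrix Gla protein, and 9 genes of bone morphogenetic protein (BMP) and SMAD signalling were followed in ribosome-bound RNA of mouse retinal endothelium after treatment with an antibody against Dll4 or with a control IgG. The 9 genes were the ligands Bmp4 and Bmp6, the receptors Acvrl1 and Eng, the target genes Id1, Id2 and Id3, and the inhibitory Smads Smad6 and Smad7. Genes were taken by symbol, and all 10 were among the 12756 genes of the deposited table. They were chosen by measured values of the anti-Dll4 to control comparison, Mgp being among the genes that passed its test, so their values in this comparison are a description and carry no p-value.

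All mice were adult C57BL/6 of the genotype Cdh5-CreERT2 Rpl22 tm1.1Psam, in which a Cre driven by the Cdh5 promoter switches on a tagged ribosomal protein Rpl22 in endothelial cells. The 4 anti-Dll4 libraries came from retinas of mice given an antibody that targets the Notch ligand Dll4, and the 3 control IgG libraries from retinas of mice given a control IgG. The sources used here do not give the dose, the timing or whether animals were pooled. RNA bound to tagged ribosomes was pulled down and sequenced at the 3′ ends of polyadenylated transcripts, and since no label ties a library to an animal of its own, p-values measure only the spread between libraries, which may be partly technical.

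BMP ligands bind pairs of type I and type II serine/threonine kinase receptors, which phosphorylate Smad1, Smad5 and Smad9; with Smad4 these enter the nucleus and switch on genes such as Id1, Id2 and Id3. In endothelial cells the type I receptor Acvrl1 (also called ALK1) and its co-receptor endoglin (Eng) carry much of this signal, and loss of either gene in humans causes hereditary haemorrhagic telangiectasia, a disease of arteriovenous malformations. Smad6 and Smad7 are induced by the pathway and feed back to inhibit it. Mgp binds BMP ligands outside the cell and blocks them, and, once its glutamate residues are carboxylated, it also inhibits calcification of the vessel wall.

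Each library had 1356192 to 1771086 reads in the genes of the table, and levels are given as CPM, reads scaled to 1000000 per library. Endothelial markers together made up 0.335% to 0.511% of CPM in anti-Dll4 libraries and 0.184% to 0.283% in control libraries; 21 of 22 markers were in the table, all with reads, and 16 of the 21 had a positive change. Rod markers made up 1.18% to 2.16% in anti-Dll4 and 2.72% to 2.86% in control libraries, with a positive change for 1 of 16. For both lists the groups did not overlap (exact permutation p = 0.0286 each, two-sided, the smallest that 35 splits can give; adjusted p = 0.133 over 14 marker lists). Endothelial genes were thus read in every library beside RNA of other cells carried through the pull-down. From these shares, more cells of a type, more RNA per cell and a different purity of the pull-down cannot be told apart. The part of either shift in the differences below was not tested.

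Mgp was higher after anti-Dll4, with no library of either treatment in the range of the other. It had 1856, 1262, 1188 and 929 CPM in anti-Dll4 libraries 1 to 4, against 139, 189 and 222 CPM in control IgG libraries 1, 3 and 4. These rest on 2771, 2063, 2097 and 1645 reads in anti-Dll4 and 236, 256 and 340 reads in control libraries. The lowest anti-Dll4 library lay well above the highest control library, and libraries of the same treatment differed by at most 2.00-fold among anti-Dll4 and 1.59-fold among control libraries. Mean levels were 1308 ± 392 CPM (SD, n = 4) in anti-Dll4 and 183 ± 41.4 CPM (SD, n = 3) in control libraries, a 7.14-fold ratio of means and a change of 2.81 ± 0.35 (SE) in mean log2(CPM + 1). Of all tested genes, 2.42% had a larger change than Mgp.

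Of the 10 genes, Mgp alone passed the test across all genes (limma, Benjamini-Hochberg adjusted p under 0.05), where 13 of 10899 tested genes, 0.119%, passed, each of them higher in anti-Dll4 libraries. Since Mgp was chosen through this same comparison, its pass here and in refits of these libraries was largely set in advance and is no separate support. With voom on whole reads 40 genes (0.367%) passed, again with Mgp as the only one of the 10. All 10 genes were above the filter on low values, at least 1 CPM in at least 3 libraries. The groups did not overlap for Mgp, Eng and Id3, each higher after anti-Dll4, as they did for 418 tested genes (3.84%) in that direction; for the other 7 the groups overlapped. The Mgp change stayed between 2.63 and 2.96 when each library was left out in turn. The call ended without the mean-variance trend in the limma fit, and also when libraries were scaled on endothelial markers, which brought the change to 1.90 ± 0.43.

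**Figure D1:**
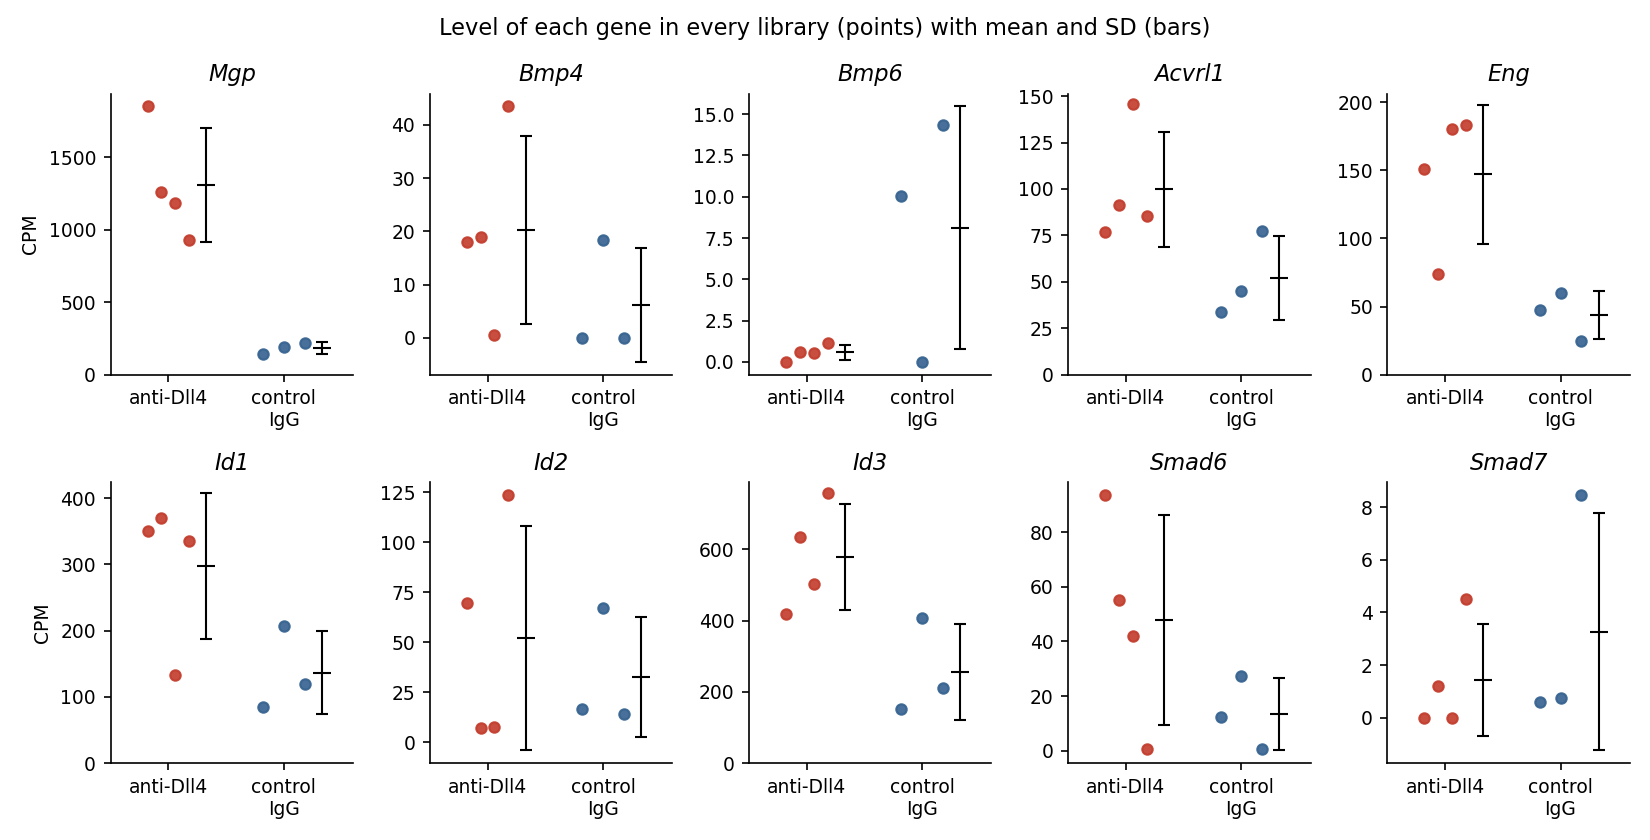
Level in CPM (vertical axis, from about 0, scaled for each gene) of the 10 genes in 4 anti-Dll4 libraries (red, left) and 3 control IgG libraries (blue, right), with the mean and SD of each treatment as black bars. The Mgp points of anti-Dll4 libraries, 929 to 1856 CPM, all lie above the control points, 139 to 222 CPM, while for Bmp4, Bmp6, Id2, Smad6 and Smad7 single libraries spread over most of the axis.

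Mgp is made by vascular smooth muscle cells and fibroblasts as well as endothelial cells, and markers of those cells were read in the same libraries. Smooth muscle markers (6 of 7 in the table, 5 of the 6 with a positive change) made up 0.0257% to 0.0470% of CPM in anti-Dll4 and 0.0108% to 0.0132% in control libraries, without overlap (exact permutation p = 0.0286, two-sided; adjusted p = 0.133 over the lists). Within that list Lmod1, the actin-binding leiomodin of smooth muscle, had 69.7 to 200.6 CPM in anti-Dll4 and 15.5 to 52.5 CPM in control libraries, without overlap and with a log2 change of 1.83. The other 5 genes overlapped, among them Acta2, the smooth muscle actin, at 1.22 to 60.6 CPM in anti-Dll4 and 0 to 34.2 CPM in control libraries, and Myh11 was not analysed here. Fibroblast markers (5 of 7 in the table, 2 of 4 tested with a positive change) made up 0.000268% to 0.0404% in anti-Dll4 and 0.00267% to 0.00730% in control libraries. Of its collagen genes, Col1a1 had 0.670, 1.83, 271 and 1.13 CPM in anti-Dll4 and 17.7, 69.3 and 1.96 CPM in control libraries, and Col1a2 had 2.01, 19.0, 19.8 and 46.3 CPM in anti-Dll4 and 4.72, 2.21 and 18.9 CPM in control libraries. Col3a1 ran from 0 to 15.2 CPM in anti-Dll4 and from 1.47 to 5.21 CPM in control libraries, and all 3 overlapped between the treatments. Pericyte markers (5 of 7 in the table, 1 of 4 tested with a positive change) made up 0.0135% to 0.0263% in anti-Dll4 and 0.0176% to 0.0362% in control libraries. Within that list Vtn was lower, at 28.2 to 67.3 CPM in anti-Dll4 and 96.2 to 184 CPM in control libraries. Its groups did not overlap (log2 change -1.54), and the other tested pericyte markers overlapped. The part of these cells in the Mgp difference was not tested.

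Both ligands were read unevenly, with at most 1 read in 1 or more libraries of each treatment. Bmp4, a BMP ligand that Mgp can bind, had 27, 31, 1 and 77 reads in the anti-Dll4 libraries, against 0, 25 and 0 reads in the control libraries. Its anti-Dll4 libraries thus ran from a single read to the highest count, and the control library with reads lay among them. Mean levels were 20.3 ± 17.6 CPM (SD, n = 4) in anti-Dll4 and 6.14 ± 10.6 CPM (SD, n = 3) in control libraries, a log2 change of 2.25 ± 1.75 (SE) that ran from 1.53 without control IgG 1 to 3.67 without control IgG 3. Bmp6, a ligand that liver endothelium of the mouse uses to signal iron load, had 0, 1, 1 and 2 reads in anti-Dll4 and 17, 0 and 22 reads in control libraries. The log2 change of Bmp6 was -1.86 ± 1.14, and between -3.09 without control IgG 3 and -1.13 without control IgG 4, with 1 control library at 0 like the lowest anti-Dll4 library, and at 1.69 to 2.21 CPM for 3 reads the anti-Dll4 levels of Bmp6 were under what this depth can tell from 0.

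The receptors had higher means in anti-Dll4 libraries. Eng, which encodes the co-receptor endoglin, had 151, 74.0, 180.1 and 183 CPM in anti-Dll4 libraries 1 to 4, against 47.2, 59.7 and 24.8 CPM in control IgG libraries 1, 3 and 4. The lowest anti-Dll4 library, number 2, was close above the highest control library. The means were 147 ± 50.8 CPM (SD, n = 4) in anti-Dll4 and 43.9 ± 17.7 CPM (SD, n = 3) in control libraries, a 3.35-fold ratio and a log2 change of 1.72 ± 0.71 (SE). Acvrl1, the type I receptor ALK1, had 77.0, 91.1, 145.6 and 85.3 CPM in anti-Dll4 and 33.6, 45.0 and 77.5 CPM in control libraries. Only control IgG 4 reached into the anti-Dll4 range, just above anti-Dll4 1. Means of 99.7 ± 31.1 CPM (SD, n = 4) in anti-Dll4 and 52.1 ± 22.8 CPM (SD, n = 3) in control libraries gave a log2 change of 0.97 ± 0.73 for Acvrl1.

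The Id genes encode helix-loop-helix proteins that lack a DNA-binding region and hold other transcription factors off DNA; in endothelium they are among the first genes to respond to BMP. Id3 had 419.8, 634, 502 and 758 CPM in anti-Dll4 libraries 1 to 4, against 151, 406 and 209.8 CPM in control IgG libraries 1, 3 and 4. The groups were separated by a narrow gap, between anti-Dll4 1 and control IgG 3. Id3 averaged 578 ± 149 CPM (SD, n = 4) in anti-Dll4 and 256 ± 134 CPM (SD, n = 3) in control libraries, a 2.26-fold ratio and a log2 change of 1.26 ± 0.41 (SE).

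Id1 had 350.2, 371, 134 and 336 CPM in anti-Dll4 and 84.4, 206 and 119 CPM in control libraries. Of its anti-Dll4 libraries 3 lay above all controls, and anti-Dll4 3 lay among them. The means of Id1 were 298 ± 110.2 CPM (SD, n = 4) in anti-Dll4 and 137 ± 62.9 CPM (SD, n = 3) in control libraries, a 2.18-fold ratio and a log2 change of 1.11 ± 0.52. Id2 had 69.6, 7.34, 7.36 and 124 CPM in anti-Dll4 and 16.5, 67.1 and 14.3 CPM in control libraries, with the highest and the lowest values both in anti-Dll4 libraries. Its log2 change was 0.09 ± 1.33, and it turned negative without anti-Dll4 1 or 4 or control IgG 1 or 4 (-0.63 at the lowest, without anti-Dll4 4) and under scaling on endothelial markers (-0.77). Within the control libraries Id1, Id2 and Id3 were each highest in control IgG 3, which also had the highest endothelial marker share of the controls. In the anti-Dll4 libraries the highest Id1 was in number 2 and the highest Id2 and Id3 in number 4. There the endothelial marker share was highest in number 3, at 0.511%. That library had the lowest Id1, at 134 CPM, with Id2 at 7.36 and Id3 at 502 CPM.

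Of the inhibitory Smads, Smad6 was uneven between libraries and Smad7 had at most 13 reads in any. Smad6, which competes with Smad4 for activated Smad1, had 140, 90, 74 and 1 reads in anti-Dll4 and 21, 37 and 1 reads in control libraries. In each treatment the library numbered 4 had a single read, and the other anti-Dll4 libraries lay above all controls. Mean levels of Smad6 were 47.8 ± 38.4 CPM (SD, n = 4) in anti-Dll4 and 13.4 ± 13.3 CPM (SD, n = 3) in control libraries, and its log2 change of 1.51 ± 1.72 became 2.84 without anti-Dll4 4 and 0.33 without control IgG 4. Smad7, which blocks the type I receptors, had 0, 2, 0 and 8 reads in anti-Dll4 and 1, 1 and 13 reads in control libraries. Its log2 change was -0.67 ± 1.04, and it turned to 0.17 without control IgG 4.

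Such uneven counts were common in these libraries. Bmp4, Bmp6 and Smad6 each had a library with at most 1 read and another library of the same treatment with at least 20 reads. The same held for 4410 of the 10899 tested genes (40.5%). Mgp, Acvrl1, Eng, Id1, Id2 and Id3 had more than 1 read in every library.

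**Figure D2:**
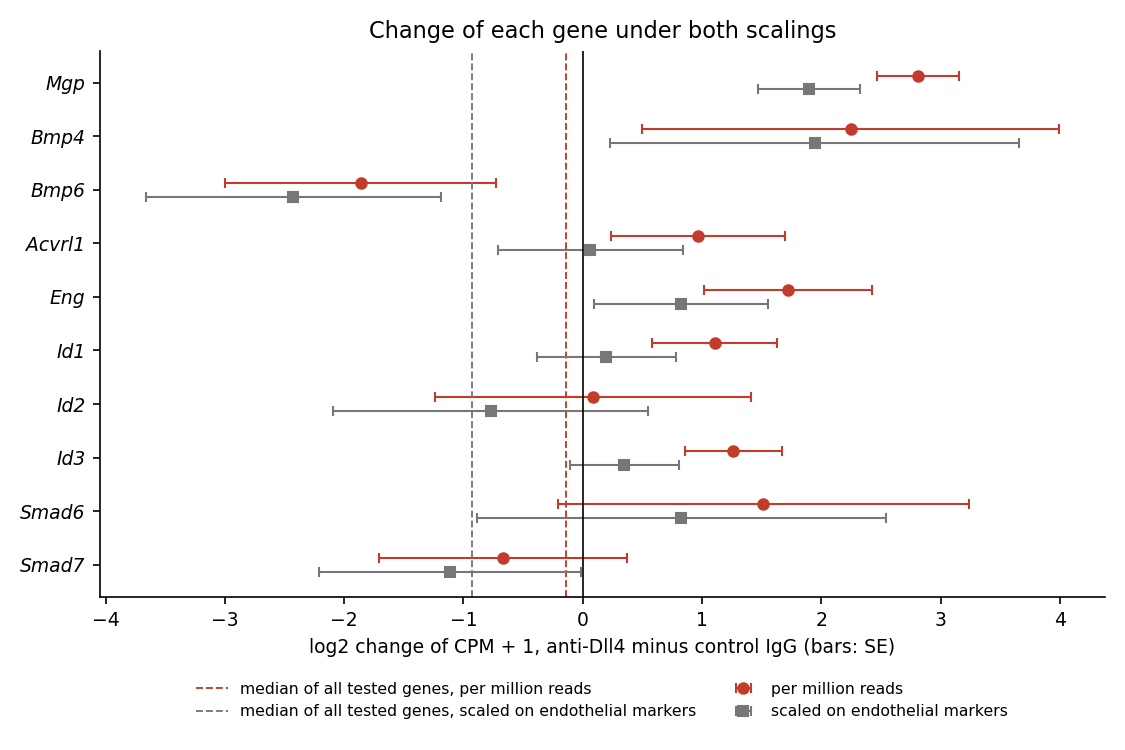
Change in mean log2(CPM + 1), anti-Dll4 minus control IgG (horizontal axis), of the 10 genes on the CPM scale (red circles) and after scaling each library on its endothelial markers (grey squares), with SE bars from limma and dashed lines at the median of all tested genes. Mgp is farthest to the right in red, at 2.81, and scaling moves the median of all genes from -0.14 to -0.93.

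Because endothelial markers had a higher share in anti-Dll4 libraries, each gene was also set against their summed CPM. Of the 21 markers 16 had a positive change, but they did not shift alike. The ratio of mean CPM was 0.79 for Kdr, 0.85 for Flt1 and 1.13 for Pecam1, beside 3.22 for Esam, 2.76 for Cldn5 and 2.66 for Egfl7. The sum need not measure endothelial content alone, and whether its rising markers respond to anti-Dll4 was not tested. Per 1000 CPM of endothelial markers, Mgp had 473, 377, 232 and 225 CPM in anti-Dll4 libraries 1 to 4, against 72.0, 66.6 and 120.1 CPM in control IgG libraries 1, 3 and 4. The groups again did not overlap, and the ratio of the means was 3.79. None of the other 9 genes had groups that stayed apart on this scale, where anti-Dll4 lay above control libraries without overlap for 0.918% of all tested genes and below them for 14.3%. Eng had 38.4, 22.1, 35.3 and 44.3 CPM in anti-Dll4 and 24.4, 21.1 and 13.4 CPM in control libraries on this scale, a ratio of means of 1.78, with anti-Dll4 2 below control IgG 1. The ratio was 1.29 for Id3, 1.27 for Id1, 0.956 for Acvrl1 and 0.962 for Id2, each with groups that overlapped.

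Scaling on endothelial markers lowered the median log2 change of all tested genes from -0.14 to -0.93. Scaling divides all genes of a library by the same factor. Distances from the median were thus bound to change little, apart from the effect of the 1 CPM added before logs. They do not test the part of endothelial content. Relative to the median of each scale, Mgp stood 2.95 higher on the CPM scale and 2.82 higher after scaling. The corresponding values were 1.86 and 1.75 for Eng, 1.40 and 1.28 for Id3, 1.25 and 1.13 for Id1, and 1.10 and 0.99 for Acvrl1. For Bmp4, uneven between libraries, they were 2.38 and 2.87, the latter above Mgp. Smad6 had 1.65 and 1.75, and Id2 0.22 and 0.16. Under both scalings 8 of the 10 genes lay above the median gene, Bmp6 and Smad7 below it.

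**Figure D3:**
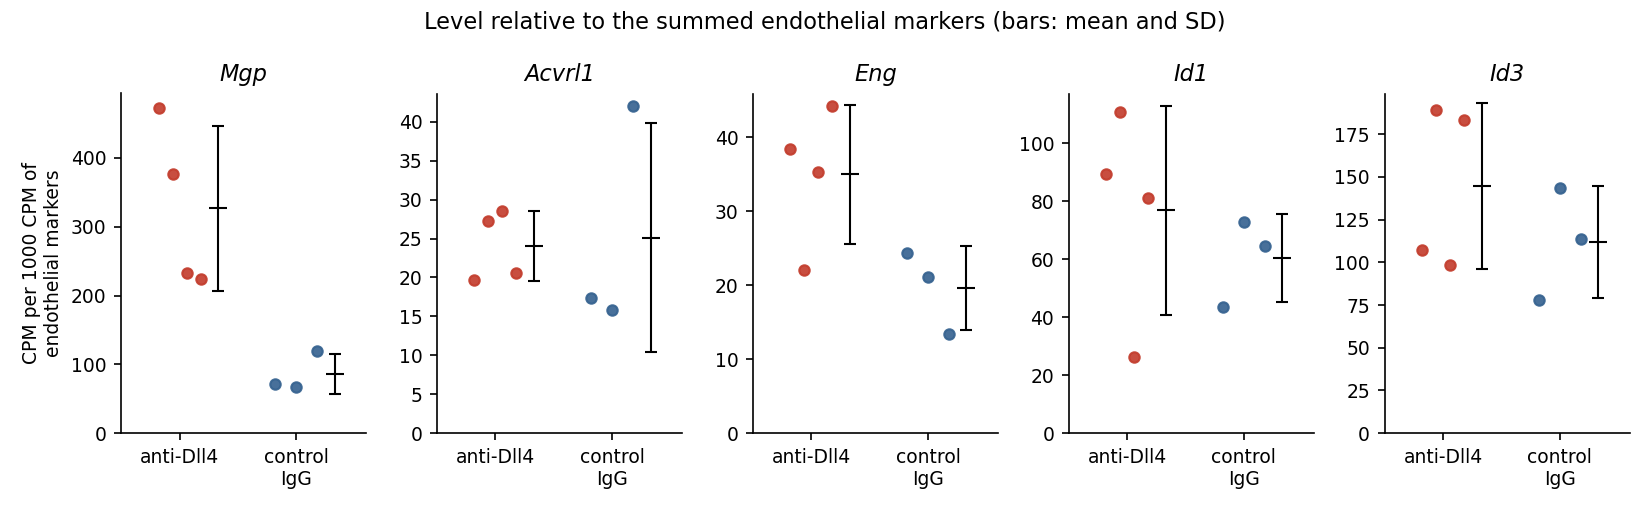
CPM of Mgp, Acvrl1, Eng, Id1 and Id3 per 1000 CPM of summed endothelial markers (vertical axes, from 0) in anti-Dll4 (red, left) and control IgG libraries (blue, right), with mean and SD as black bars. The Mgp libraries of the 2 treatments stay apart, at 225 to 473 and 66.6 to 120.1, and for the other 4 genes they overlap.

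Promoters of Id3 and Eng, whose groups did not overlap, and of Smad6 are shown because Smad proteins bind short DNA motifs, and these are the letters such a protein would meet next to the transcription start. RefSeq promoters (build GRCm38.p6, 250 bases before to 50 after the start) were found for 6 of the 10 genes, and Mgp, Acvrl1, Id1 and Smad7 were not among them. A set of 3 motifs was searched on both strands, with capitals marking a match. The palindrome GTCTAGAC is bound by Smad3 and Smad4 in the test tube. CAGAC (or GTCTG) shares AGAC (or GTCT) with that palindrome but does not occur within it. GGCGCC is a GC-rich form used by Smad1 and Smad5. The Smad6 promoter (chr9:64022010-64022309, minus strand) held GTCTAGAC from position -4, across the start. At any position, 0.213% of 32851 promoters of the same length held this motif. The promoters of Id3 (chr4:136143572-136143871, plus strand) and Eng (chr2:32646345-32646644, plus strand) each held CAGAC or its complement at 2 places, and 49.6% of all promoters held at least 1. Bmp6 held 1 CAGAC, Id2 held 1 GGCGCC, a motif of 11.9% of promoters, and Bmp4 held none of the 3 motifs. No matches overlapped one another, and a match describes the letters only.
Id3: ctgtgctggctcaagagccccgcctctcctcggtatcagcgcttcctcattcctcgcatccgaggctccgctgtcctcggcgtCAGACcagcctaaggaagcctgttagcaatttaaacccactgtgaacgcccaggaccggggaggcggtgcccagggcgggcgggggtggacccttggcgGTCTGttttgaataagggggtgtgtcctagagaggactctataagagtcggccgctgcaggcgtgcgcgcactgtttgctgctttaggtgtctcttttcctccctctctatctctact
Eng: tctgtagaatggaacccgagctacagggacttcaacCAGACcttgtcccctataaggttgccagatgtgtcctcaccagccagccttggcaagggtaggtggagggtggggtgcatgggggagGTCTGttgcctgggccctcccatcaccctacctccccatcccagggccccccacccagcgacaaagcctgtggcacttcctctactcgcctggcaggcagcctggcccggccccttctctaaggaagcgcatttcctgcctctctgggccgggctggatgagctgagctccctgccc
Smad6: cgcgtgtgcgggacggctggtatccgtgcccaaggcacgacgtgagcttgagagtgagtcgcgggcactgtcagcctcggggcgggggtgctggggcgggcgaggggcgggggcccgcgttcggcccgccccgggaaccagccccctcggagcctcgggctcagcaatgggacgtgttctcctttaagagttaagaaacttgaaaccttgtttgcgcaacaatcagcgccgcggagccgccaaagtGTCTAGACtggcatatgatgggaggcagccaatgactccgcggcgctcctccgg

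The comparison was extended to 85 other genes of BMP, TGF-beta and Gla protein biology, of which 61 were in the table and 51 were tested. None passed across all genes in limma (0 of 51, against 0.119% of all tested genes), and none passed with voom on whole reads. At an unadjusted p under 0.05, limma gave 5 higher (9.80%, against 3.68% of all tested genes) and 0 lower (against 3.41%), and voom 7 higher (13.7%, against 3.36%) and 4 lower (7.84%, against 4.93%). Positive changes numbered 34 and negative 17, with a median log2 change of 0.83, beside -0.14 over all tested genes. The filter passes a gene read only in 3 of the 4 anti-Dll4 libraries, while a gene read only in controls needs all 3. Bmp7 and Vkorc1l1, both among the 5 higher in limma, passed it through anti-Dll4 libraries alone. Groups did not overlap for Tgfbr2, Acvr2b and Smad1, higher after anti-Dll4 (5.88%, against 3.84% of all tested genes), and for Tgfbr1, lower (1.96%, against 3.75%).

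Among receptors and co-receptors, 9 were tested, 5 with a positive and 4 with a negative change, and the median was 0.65. Tgfbr2, the type II receptor for TGF-beta, had 151, 141, 473 and 274 reads in anti-Dll4 and 1, 62 and 99 reads in control libraries, a log2 change of 3.04 ± 1.08 (limma adjusted p = 0.529). Tgfbr1, its type I partner, had 29, 0, 12 and 1 reads in anti-Dll4 and 54, 54 and 82 reads in control libraries, a log2 change of -3.40 ± 1.69 (limma adjusted p = 0.706). The 2 partners of the TGF-beta receptor thus lay on opposite sides, each with groups that did not overlap. Acvr1, a type I BMP receptor, had 109, 196, 12 and 72 reads in anti-Dll4 and 18, 1 and 0 reads in control libraries, a log2 change of 3.92 ± 1.67 (limma adjusted p = 0.690). Acvr2b, a type II receptor named here after its values were seen, had 98, 42, 76 and 44 reads in anti-Dll4 and 37, 14 and 3 reads in control libraries, a log2 change of 2.04 ± 1.37 (limma adjusted p = 0.777).

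Of 12 Smads and regulators tested, 7 had a positive and 5 a negative change (median 0.29). Smad1, a transducer of BMP signals, had 10, 94, 8 and 237 reads in anti-Dll4 and 2, 1 and 0 reads in control libraries. All anti-Dll4 libraries lay above the controls, though 2 of them by few reads, and the log2 change was 3.95 ± 1.70 (limma adjusted p = 0.690). With 3 control reads in all, the ratio of pooled reads of Smad1 was 80.0 with a 95% counting interval of 27.2 to 390.0 (exact). That interval covers counting error only and leaves out the spread between libraries. Smurf2, a ubiquitin ligase that marks receptors and Smads for breakdown, had 50, 0, 63 and 2 reads in anti-Dll4 and 138, 139 and 47 reads in control libraries, a log2 change of -3.17 ± 1.59 (limma adjusted p = 0.706). Skil, a repressor of Smad-driven transcription, had 139, 29, 28 and 124 reads in anti-Dll4 and 46, 10 and 2 reads in control libraries, a log2 change of 2.22 ± 1.45 (limma adjusted p = 0.770). Smurf2 and Skil overlapped between the treatments.

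Few of the other ligands were read. Of 12 further BMP ligands 2 were tested: Bmp7, with 30, 4, 92 and 0 reads in anti-Dll4 and 0 reads in every control library (limma adjusted p = 0.695), and Gdf5, with 108 of its anti-Dll4 reads in library 4. Against a floor of 3 reads per control library, mean Bmp7 was at least 9.43-fold higher in anti-Dll4 libraries, although anti-Dll4 4 itself had none. It was at least 3.80-fold higher without anti-Dll4 3, which held most of the reads. Both bounds cover counting error only, not the spread between anti-Dll4 libraries, and the groups of Bmp7 overlapped. Bmp7 passed the filter through its anti-Dll4 libraries alone, so the bounds describe its reads and are no support for a difference. The main endothelial ligands of Acvrl1, Gdf2 (BMP9) and Bmp10, were not analysed here. Of 5 tested TGF-beta and activin ligands 2 had positive and 3 negative changes. Tgfb2, a TGF-beta ligand, had 298, 500, 165 and 591 reads in anti-Dll4 and 495, 250 and 514 reads in control libraries, a log2 change of -0.33 ± 0.51 with overlapping groups. Inhba, an activin subunit, and Gdf15, a stress-induced cytokine, had at most 16 and 9 reads in a library.

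The log2 difference was positive for all 6 tested extracellular antagonists (median 1.76), and none passed. The filter left out 2 others that had reads. Chrdl1 had 0 reads in every anti-Dll4 library and 28, 0 and 17 reads in control libraries. Chrd had 0, 77, 0 and 1 reads in anti-Dll4 and 70, 0 and 0 reads in control libraries. Fstl1, a secreted follistatin-like glycoprotein, had 3, 84, 81 and 160 reads in anti-Dll4 and 10, 1 and 11 reads in control libraries, a log2 change of 2.64 ± 1.68 (limma adjusted p = 0.765). Crim1, a membrane protein that binds BMPs and is found in endothelium, had 43, 136, 633 and 118 reads in anti-Dll4 and 4, 300 and 26 reads in control libraries, a log2 change of 1.90 ± 1.19 (limma adjusted p = 0.763). For both genes 1 library fell on the other treatment's side. Nbl1, a BMP antagonist of the DAN family, had 126 of its 133 anti-Dll4 reads in library 1, and 2 reads in the controls. The ratio of its pooled reads was 45.8 with a counting interval of 12.4 to 382. This interval leaves out the spread between libraries, and the ratio rests on library 1.

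Of 9 further target genes, 7 had a positive and 2 a negative change (median 0.90). Msx1, a homeobox gene induced by BMP, had 57, 0, 13 and 123 reads in anti-Dll4 and 0, 6 and 1 reads in control libraries, a log2 change of 2.57 ± 1.70 (limma adjusted p = 0.774). Tgfbi, a matrix protein induced by TGF-beta, had 1, 97, 34 and 52 reads in anti-Dll4 and 1, 9 and 4 reads in control libraries. For both genes the higher reads were in 3 of the 4 anti-Dll4 libraries, and the remaining one was among the controls.

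**Figure D4:**
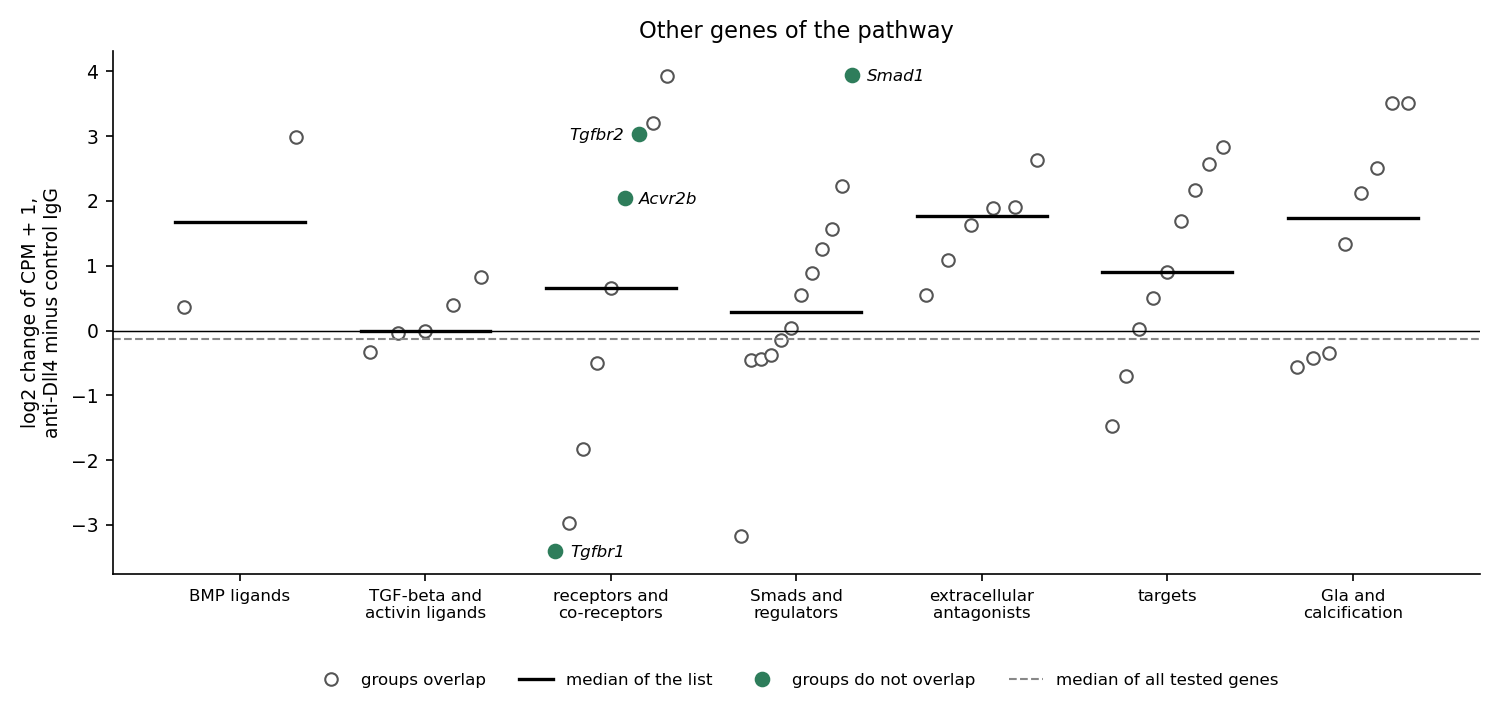
Change in mean log2(CPM + 1), anti-Dll4 minus control IgG (vertical axis), of 51 other genes of the pathway by role. Filled points are the 4 genes whose treatments do not overlap, Tgfbr2, Acvr2b and Smad1 above 0 and Tgfbr1 below, black bars are list medians and the dashed line is the median of all tested genes, -0.14.

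Genes tied to the Gla modification and to calcification showed no member past the threshold (0 of 8 in limma; 5 positive and 3 negative changes, median 1.73). Gas6, another Gla protein and a ligand of TAM receptors, had 3625, 4465, 2799 and 3027 reads in anti-Dll4 and 4471, 3945 and 4265 reads in control libraries, a log2 change of -0.43 ± 0.23 (limma adjusted p = 0.711). Its groups overlapped through anti-Dll4 2, the other anti-Dll4 libraries being below the controls in CPM. Ggcx, the enzyme that carboxylates both Mgp and Gas6, had a log2 change of -0.57 (limma adjusted p = 0.836). Vkorc1l1, which recycles the vitamin K that Ggcx uses, had 18, 0, 45 and 86 reads in anti-Dll4 and 0 reads in every control library. Its groups overlapped (limma adjusted p = 0.680). Against a floor of 3 reads per control library its mean was at least 10.9-fold higher, with anti-Dll4 2 at 0, and at least 6.32-fold higher without anti-Dll4 4. These bounds cover counting error only, not the spread between anti-Dll4 libraries. Vkorc1l1 also passed the filter through anti-Dll4 libraries alone, so its bounds describe reads and are no support for a difference. Eln, which encodes elastin, a protein of arterial walls, had 318, 143, 137 and 3 reads in anti-Dll4 and 102, 0 and 0 reads in control libraries, a log2 change of 3.51 ± 1.84 (limma adjusted p = 0.711).

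The genes whose profile over the 7 libraries was most like that of Mgp were ranked by the root mean square difference of log2(CPM + 1) after centring each gene on its mean, among 7501 other genes whose mean log2 value was 3 or more. The closest were Snf8, a subunit of the ESCRT-II sorting complex (0.29), and Bst2, the interferon-induced membrane protein tetherin (0.38). They were followed by Grap, an adaptor related to Grb2 (0.46), Ly6a, the surface antigen Sca-1 (0.48), and D630045J12Rik (0.49). All 5 had anti-Dll4 libraries above the controls without overlap, which a likeness to Mgp brings with it. Ly6a averaged 699.7 CPM in anti-Dll4 and 98.0 CPM in control libraries, and Snf8 99.6 CPM in anti-Dll4 and 12.6 CPM in control libraries. Of the other 9 genes described above, Eng ranked 112, Id3 189, Id1 233 and Acvrl1 241, at differences of 0.88 to 1.02, and Id2 and Smad6 ranked 4172 and 4384. Bmp4, Bmp6 and Smad7 had mean log2 values under 3 and were not ranked.

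**Figure D5:**
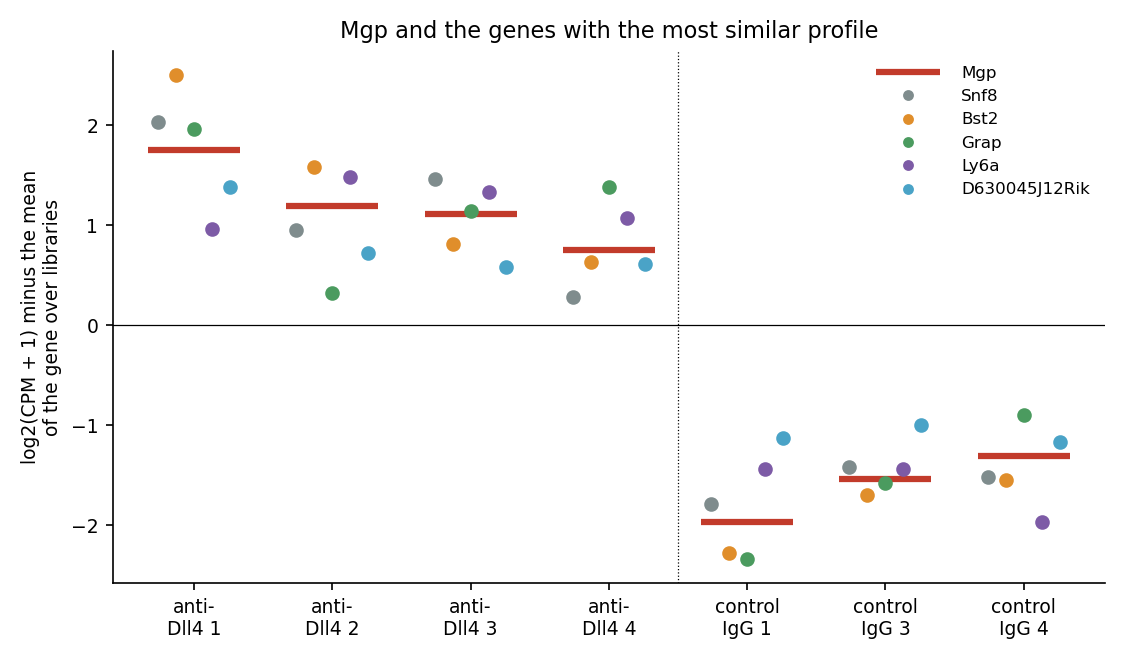
Level of Mgp (red bars) and of the 5 genes with the most similar profile (points) in each library, as log2(CPM + 1) minus the gene's mean over the 7 libraries (vertical axis), with anti-Dll4 libraries on the left and control IgG libraries on the right of the dotted line. All 6 genes lie above 0 in every anti-Dll4 library and below 0 in every control library.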

How the data were processed

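The members and gene lists were chosen with earlier results of these data known. Per the submitters' processing notes, cutadapt, TopHat2 and bedtools were used, without versions or roles, and hg19, a human build, is named, although 12616 of 12756 symbols matched mouse GENCODE names; the sources used here do not give the counting rule or strand use. The deposited values are log10(CPM + 1), from the values themselves: turned back, CPM summed to 1000000 in each library. All values were whole multiples of a single read (tolerance 1e-06), which gave reads per gene; no molecular identifiers are named, so intervals and floors cover counting error only. No gene shared all its reads with a member.

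The deposited log10 values were converted to log2(CPM + 1) and the 10899 genes that reached 1 CPM in 3 or more libraries entered limma 3.58.1 in R 4.3.3 (antibody as the only term, mean-variance trend, two-sided, Benjamini-Hochberg over all genes). Named were the 10 members, from each pathway list the 3 genes with the smallest p and any past 0.05, and the 5 genes most like Mgp in profile; Acvr2b and Ggcx were named after their values were seen. A single target gene is not reported here. Marker list sums were compared by exact permutation tests over 35 splits. Columns were matched to titles by number; control IgG 1 matches no title, and the title numbered 15 no column, so it was used as a control without a number. Settings tried were pseudocounts of 0.5 and 5, no filter or 5 CPM, no trend, scaling on summed endothelial CPM, a replicate block, voom and leaving out each library. The fit was tested on simulated data.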

Additional observations from a re-analysis of the deposited data

Results flagged for a closer look

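Among the 4 anti-Dll4 libraries, 24 quantities were checked for a library far from the others by Dixon's criterion, and 2 met it; chance gives about 5% of groups. Id1 in anti-Dll4 3, at 134 CPM, lay far below the other anti-Dll4 libraries, at 336 to 371 CPM; its log2 change was 1.46 without that library. Fibroblast markers made up 0.0404% of CPM in the same library and at most 0.00638% in the other anti-Dll4 libraries.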

How the results depend on the processing

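The count of 13 genes, all higher, became 0 without the mean-variance trend and 0 under scaling on endothelial markers, and the single member called became 0 in both. With voom the count was 40, 16 higher and 24 lower, Mgp among them. With a library left out it ran from 3 to 20, the lowest without anti-Dll4 4 and the highest without control IgG 3, and was 4 without control IgG 1 and 6 without anti-Dll4 1 or 2; calls were all higher and Mgp was called in each of these 7 fits. Mgp kept its direction in every fit but missed the threshold at a log2 change of 2.81 without the trend, which alters only the error, and 1.90 under scaling. A replicate block on title numbers gave 3 genes, 1 higher and 2 lower, with 0 members called and Mgp at 2.36. No label ties libraries of the same number to each other. Deviations from the group means correlated across genes at 0.05 for the libraries numbered 3 and 0.07 for those numbered 4. The value was 0.05 for anti-Dll4 1 and control IgG 1, and from -0.037 to 0.015 for pairs of different numbers. All are small, and whether same-numbered libraries share more than a number was not tested. The other pathway genes had 0 calls in every fit. Pseudocounts and filters changed no call of a member; the 5 CPM filter dropped Bmp6 and Smad7. Marker lists were recomputed with each library left out and as mean log2 values; those of endothelial, rod and smooth muscle cells kept their direction, and those of red cells, fibroblasts and ganglion cells turned in some. Scaling brought Mgp to 1.90, Acvrl1 to 0.06, Eng to 0.82, Id1 to 0.20 and Id3 to 0.35, each a move beyond its SE. Bmp4, Bmp6, Id2, Smad6 and Smad7 moved by less than theirs. The median of all tested genes moved too, from -0.14 to -0.93, so these moves are not particular to the genes named. The cause of these differences was not tested.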

Other observations

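Red blood cell markers, haemoglobins among them, differed more between libraries than between treatments, at 0.0661% to 3.60% of CPM in anti-Dll4 and 0.140% to 1.87% in control libraries (exact permutation p = 0.943, two-sided; adjusted p = 0.943 over 14 lists), with a negative change for each of the 6 genes. Müller glia markers were at 0.207% to 0.305% in anti-Dll4 and 0.194% to 0.291% in control libraries (exact permutation p = 0.457, two-sided; adjusted p = 0.640). Cone markers were at 0.0329% to 0.0859% in anti-Dll4 and 0.0724% to 0.0950% in control libraries, bipolar cell markers at 0.0885% to 0.166% in anti-Dll4 and 0.137% to 0.181% in control libraries, and amacrine and ganglion cell markers likewise overlapped. The astrocyte, pigment epithelium and microglia lists had at most 0.0157% of CPM in a library.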
